A study of Mus musculus with 4 samples.

Results

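The genes described here are 10 members of the insulin signalling pathway of fat cells, taken by symbol from a table of 55487 genes. They are the receptor gene Insr, the substrate genes Irs1 and Irs2, the kinase pathway genes Pik3r1 and Akt2, the glucose transport genes Tbc1d4 and Slc2a4, the transcription factor gene Foxo1, and the negative regulators Ptpn1 and Grb14. All 10 symbols were found, each on 1 row, and all 10 passed the filter on low values. RNA was sequenced from adipocytes isolated from the white fat beside the gonads (gWAT) of male mice kept on standard diet. CKO mice were set against control littermates labelled WT, with 2 libraries in each group. The labels do not spell out CKO, and nothing is said of the allele, the promoter of a Cre, the age of the mice or pooling of animals. The title of the series names the transcription factor BLIMP1, encoded by Prdm1, and macrophages. Whether each library is a separate animal is not said, and a p-value here reflects no more than the spread among these 4 libraries.

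Insulin binds a receptor tyrosine kinase at the cell surface. The receptor phosphorylates insulin receptor substrates, which recruit phosphoinositide 3-kinase, and the lipid it makes activates the kinase AKT. In fat cells AKT2 phosphorylates TBC1D4, also called AS160, which releases vesicles that carry the glucose transporter GLUT4 to the plasma membrane. AKT also phosphorylates FOXO1 and so keeps it out of the nucleus. The phosphatase PTP1B, encoded by Ptpn1, and the adaptor GRB14 damp the signal at the receptor. Much of this control acts on proteins and their phosphorylation, which RNA levels do not show.

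The libraries held 24152081 to 26742547 reads. WT replicate 2 stood apart in its makeup. Summed reads of 8 macrophage markers were 15736 in it (RPM, reads per 1000000 of the library), against 6015 in the other WT library and 1208 and 3023 in CKO replicates 1 and 2. Summed reads of 10 adipocyte markers, among them Adipoq, were 8597 RPM in it, against 30555 in the other WT library and 53975 and 35948 in CKO replicates 1 and 2. The labelled cell type thus had its defining markers in each library, together with markers of macrophages. All 8 macrophage markers were lower in CKO (log2 change -3.22 to -1.68) and 9 of 10 adipocyte markers were higher (median 1.19), with 0 of either past the adjusted threshold in limma and 7 and 0 at an unadjusted p under 0.05. All 6 endothelial and all 5 red cell markers were higher as well (medians 1.22 and 2.17), while 5 of 6 fibroblast markers were lower (median -0.56). Summed markers of muscle reached 73.1 RPM, those of mesothelium 13.2, those of lymphocytes 4.00 and those of epididymis 0.449, and 2 of the 5 epididymis markers were at 0 reads in all libraries. In RNA from many cells at once, fewer cells of a type and less RNA per cell cannot be told apart. Reads of Prdm1 numbered 152 and 386 in CKO and 514 and 1135 in WT. Their order over the libraries was that of the summed macrophage markers. The labels name neither the targeted gene nor any deleted part, so these reads do not check the labels.

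The insulin pathway genes were mostly higher in CKO, with Slc2a4 and Irs1 showing the largest differences, and none passed the test. Of the 10, 8 had a positive log2 change in CKO against WT, Ptpn1 was lower and Grb14 was level (median over the 10 of 0.63, against 0.015 over the 16871 genes tested, of which 51.1% were positive). In limma 0 of 10 had an adjusted p under 0.05, as did 0% of all genes in either direction, and voom weights gave 0 as well. At an unadjusted p under 0.05 there was 1, Ptpn1, against a background of 7.26% of genes lower and 3.35% higher. The CKO pair lay above the WT pair for 4 of the 10 (Insr, Irs1, Slc2a4 and Foxo1; background 23.9%) and below them for Ptpn1 (background 26.8%), and the groups overlapped for the other 5. WT replicate 2 was the lowest of the 4 libraries for 9 of the 10 genes, and CKO replicate 1 the highest for 8. Over all tested genes these shares were 38.2% and 27.0%, and WT replicate 2 was also the highest for 40.0%. Without WT replicate 2 the median was 0.31, with 7 genes higher and 3 lower. Without WT replicate 1 it was 1.17, with 4 genes past the adjusted threshold (Slc2a4, Irs1, Foxo1 and Ptpn1; background 4.96% higher and 5.56% lower), where the single WT library left is taken to have the spread of the CKO pair. How far the amounts of macrophage and adipocyte RNA take part in these differences was not tested.

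**Figure D1:**
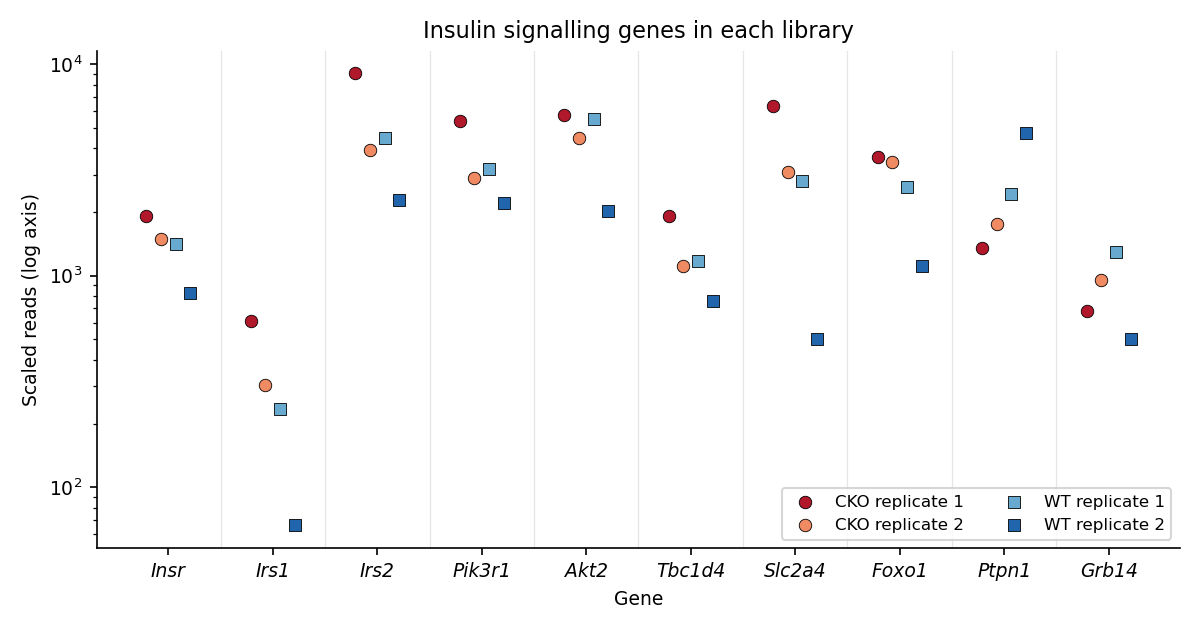
Reads scaled by size factor (log axis) of the 10 insulin signalling genes, with 1 point for each library, circles for CKO and squares for WT. WT replicate 2 is the lowest point for 9 genes and the highest for Ptpn1, while CKO replicate 2 and WT replicate 1 lie close together for most genes. Over all tested genes, WT replicate 2 is the lowest for 38.2% and the highest for 40.0%.

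The receptor gene Insr was modestly higher in CKO. Scaled reads were 1912 and 1495 in CKO replicates 1 and 2 and 1414 and 831 in WT replicates 1 and 2. The groups did not overlap, but CKO replicate 2 lay only 0.080 above WT replicate 1 on the log2(scaled reads + 1) scale. The log2 change was 0.64 (SE 0.34, 95% interval -0.25 to 1.53), with a limma adjusted p of 0.479, and 0.26 without WT replicate 2. Insr spans 3122061 to 3279617 on the minus strand of chromosome 8 in GRCm38.

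Irs1 was low and differed strongly, whereas Irs2, the more abundant substrate gene, differed less. Irs1 had 608 and 336 reads in CKO replicates 1 and 2 against 226 and 63 in WT replicates 1 and 2. Scaled reads averaged 457 ± 215 (SD, n = 2) in the CKO group, as against 150 ± 119 (SD, n = 2) in the WT group, with every CKO value above every WT value. The log2 change of Irs1 was 1.78 (SE 0.72, interval -0.084 to 3.64), a 3.43-fold difference, with a limma adjusted p of 0.459. Without WT replicate 2 it was 0.87, and without WT replicate 1 it was 2.68 (adjusted p 0.0480).

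Irs2 had scaled reads of 9038 and 3912 in CKO replicates 1 and 2 and 4469 and 2285 in WT replicates 1 and 2. CKO replicate 1 was high and WT replicate 2 low, and the other pair was reversed in order, so the groups overlapped. Irs2 gave a log2 change of 0.90 (SE 0.55, interval -0.52 to 2.31), with a limma adjusted p of 0.511, 0.29 without CKO replicate 1 and 0.41 without WT replicate 2. Per 1 kb of exon, the Irs1 level relative to Irs2 was 0.0466 and 0.0538 in CKO replicates 1 and 2 and 0.0363 and 0.0200 in WT replicates 1 and 2. Both genes have 2 exons and 1 annotated transcript, Irs1 on chromosome 1 (82233101 to 82291416) and Irs2 on chromosome 8 (10984681 to 11008458), both on the minus strand. Exons of each overlap an annotated gene on the opposite strand, Gm9747 for Irs1 and 9530052E02Rik for Irs2. Without knowledge of strand in the counting, reads of such pairs cannot be told apart. Gm9747 was listed at 0 reads and 9530052E02Rik at 0 to 9.

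The promoter windows of these paired substrate genes are shown because they were the only ones among the 8 members with a RefSeq window that held the words marked here. Each window runs from 250 bases before to 50 after a RefSeq transcript start (GRCm38.p6, minus strand, chr1:82291390-82291689 for Irs1 and chr8:11008880-11009179 for Irs2). Capitals mark CACGTG, the E-box bound by basic helix-loop-helix factors, and TGTTTTG, the core of the insulin response element, a word to which FOXO factors can bind.
Irs1: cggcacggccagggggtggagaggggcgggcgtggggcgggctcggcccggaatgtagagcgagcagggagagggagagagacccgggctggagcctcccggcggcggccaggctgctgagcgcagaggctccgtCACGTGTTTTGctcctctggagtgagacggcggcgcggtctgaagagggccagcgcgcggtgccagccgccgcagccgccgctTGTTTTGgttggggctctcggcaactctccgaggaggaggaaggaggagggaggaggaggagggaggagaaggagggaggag
Irs2: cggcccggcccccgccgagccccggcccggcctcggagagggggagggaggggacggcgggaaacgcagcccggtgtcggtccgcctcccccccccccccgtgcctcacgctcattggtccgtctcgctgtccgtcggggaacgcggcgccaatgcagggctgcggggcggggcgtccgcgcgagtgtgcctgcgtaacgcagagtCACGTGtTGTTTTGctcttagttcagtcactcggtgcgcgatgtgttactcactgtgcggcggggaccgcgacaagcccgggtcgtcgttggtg
In the Irs1 window CACGTG begins at -115 and TGTTTTG at -111, counted from the start, so the words share their letters TG, and a further TGTTTTG begins at -32. In the Irs2 window CACGTG begins at -44 and TGTTTTG at -37, with a t between them, and the RefSeq starts of both genes lie outside the GENCODE spans given above. On either strand, CACGTG stood in 7.15% and TGTTTTG in 6.28% of the 32851 RefSeq windows of this length that were searched. Other words were searched in the 12 windows of the 8 members. The FOXO word TGTTTAC (3.65% of all windows) and GAAAGT, a core of BLIMP1 sites (14.3%), had no match in them, and the SP1 word GGGCGG (35.7%) stood in 8 of the 12. A match is a run of letters and says nothing of binding in these cells.

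The kinase pathway genes Pik3r1 and Akt2 overlapped between the groups and did not pass the test. Pik3r1 encodes the regulatory subunits p85 alpha, p55 alpha and p50 alpha of phosphoinositide 3-kinase. It had scaled reads of 5360 and 2896 in CKO replicates 1 and 2 and 3182 and 2218 in WT replicates 1 and 2. CKO replicate 1 stood high and the other 3 libraries were close. Pik3r1 gave a log2 change of 0.57 (SE 0.40, interval -0.46 to 1.60), with a limma adjusted p of 0.545, and 0.12 without CKO replicate 1.

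Akt2, the main AKT gene of insulin-responsive tissues, had scaled reads of 5757 and 4486 in CKO replicates 1 and 2 and 5506 and 2029 in WT replicates 1 and 2. Only WT replicate 2 was low, and WT replicate 1 lay above CKO replicate 2. Between the groups Akt2 gave a log2 change of 0.60 (SE 0.53, interval -0.76 to 1.97), with a limma adjusted p of 0.617. It turned to -0.12 without WT replicate 2. Per 1 kb of exon, the Akt2 level relative to Akt1 was 0.672 and 0.442 in CKO replicates 1 and 2. It was 0.590 and 0.143 in WT replicates 1 and 2, so Akt1 was the more abundant per length in each library. That order rests on the merged exon lengths, 7131 bases for Akt2 and 4098 for Akt1. In reads alone Akt2 was above Akt1 in CKO replicate 1 (5747 against 4915) and WT replicate 1 (5303 against 5162). Pik3r1 lies on chromosome 13 (101680563 to 101768217, minus strand) and Akt2 on chromosome 7 (27591552 to 27640826, plus strand).

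Slc2a4, which encodes GLUT4, showed the largest difference of the 10 genes and also the largest standard error. It had scaled reads of 6364 and 3101 in CKO replicates 1 and 2 and 2812 and 504 in WT replicates 1 and 2. The groups did not overlap, but WT replicate 1 lay within 0.14 of CKO replicate 2 on the log2 scale and 2.48 above WT replicate 2. The log2 change of Slc2a4 was 1.90 (SE 0.88, interval -0.39 to 4.18), a 3.73-fold difference, with a limma adjusted p of 0.459. It was 0.66 without WT replicate 2 and 3.14 without WT replicate 1 (adjusted p 0.0442). Slc2a4 lies on chromosome 11 (69942539 to 69948188, minus strand).

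Tbc1d4, whose protein restrains GLUT4 vesicles until AKT phosphorylates it, had scaled reads of 1906 and 1108 in CKO replicates 1 and 2 and 1169 and 762 in WT replicates 1 and 2. CKO replicate 1 was high, WT replicate 2 low, and the others overlapped. Tbc1d4 gave a log2 change of 0.62 (SE 0.38, interval -0.37 to 1.61), with a limma adjusted p of 0.514, and 0.23 without CKO replicate 1. Tbc1d4 lies on chromosome 14 (101442360 to 101609191, minus strand).

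Over the 4 libraries, the genes whose log2 values followed Slc2a4 most closely were Hcar1, Ces1f, Mst1r, Slc2a13 and Bnc2. Hcar1 encodes the lactate receptor that restrains lipolysis in fat cells. The Euclidean distance of centred profiles from Slc2a4 was 0.064 for Hcar1 and 0.12 to 0.19 for the other 4, over 11037 named protein-coding genes. Irs1 stood 49th of these at 0.49, the closest of the insulin pathway genes, and Foxo1 and Irs2 followed at 1.40 and 1.47. With 4 libraries such distances are a description only.

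Foxo1 was higher in CKO with closely matched CKO libraries. It had scaled reads of 3646 and 3428 in CKO replicates 1 and 2 and 2616 and 1116 in WT replicates 1 and 2. The CKO libraries were nearly equal (SD 0.063 on the log2 scale) and both lay above the WT libraries, which were far apart (SD 0.87). Foxo1 gave a log2 change of 1.05 (SE 0.45, interval -0.11 to 2.21), a 2.07-fold difference, with a limma adjusted p of 0.459. It was 0.43 without WT replicate 2 and 1.66 without WT replicate 1 (adjusted p 0.0442). Foxo1 lies on chromosome 3 (52268336 to 52353221, plus strand), and an exon overlaps Gm20402 on the opposite strand, which was listed at 0 reads.

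Ptpn1, the brake at the receptor, ran opposite to most of the other genes. It had scaled reads of 1356 and 1756 in CKO replicates 1 and 2 and 2442 and 4714 in WT replicates 1 and 2. The groups did not overlap, with a gap of 0.48 on the log2 scale between CKO replicate 2 and WT replicate 1, the widest gap of the 5 genes whose groups were apart. The log2 change of Ptpn1 was -1.14 (SE 0.39, interval -2.15 to -0.12), 2.20-fold lower in CKO, with an unadjusted p of 0.0345 and an adjusted p of 0.459 in limma. It was -0.66 without WT replicate 2 and -1.61 without WT replicate 1 (adjusted p 0.0444). Its order over the libraries was shared by 7 of 8 macrophage markers, by 1 of 6 fibroblast markers (Col1a1), by 0 of 10 adipocyte markers and by 17.0% of all tested genes, and their part in its change was not tested. Scaled reads of Adgre1, one of the 7, were 1386 and 2813 in CKO replicates 1 and 2 and 8381 and 33520 in WT replicates 1 and 2. The profiles nearest to Ptpn1 were those of Sestd1, Slc25a24, Stard3nl, Bmt2 and Ap1g2, at distances of 0.037 to 0.071. Ptpn1 lies on chromosome 2 (167932057 to 167979385, plus strand).

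Grb14 encodes an adaptor that binds the activated receptor and blocks its kinase, and its groups could not be told apart. It had scaled reads of 682 and 956 in CKO replicates 1 and 2 and 1301 and 505 in WT replicates 1 and 2. Both CKO values lay between the WT values, and WT replicate 1 was the highest library, unlike in any other of the 10 genes. The log2 change of Grb14 was -0.0054 (SE 0.51, interval -1.33 to 1.32), with a limma adjusted p of 0.996. That interval leaves room for differences past 2-fold in either direction. The change was -0.69 without WT replicate 2 and 0.68 without WT replicate 1. Grb14 lies on chromosome 2 (64912476 to 65024987, minus strand).

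Levels per length (RPKM, reads per kb of exon and per 1000000 library reads) placed Slc2a4 first in both CKO libraries and in WT replicate 1 (32.2), and Ptpn1 first in WT replicate 2 (31.0). The CKO means were 54.6 ± 25.1 for Slc2a4, 41.0 ± 21.9 for Irs2 and 28.9 ± 4.19 for Akt2 (SD, n = 2). The libraries of each overlapped those of the next. Foxo1 (16.5 ± 0.212), Pik3r1 (16.4 ± 6.47) and Ptpn1 (11.4 ± 2.42) came next, then Tbc1d4 (7.89 ± 2.73), Insr (4.99 ± 0.712), Grb14 (4.62 ± 1.23) and Irs1 (2.00 ± 0.890). Along this order the CKO libraries of neighbours overlapped except between Akt2 and Foxo1, between Tbc1d4 and Insr, and between Grb14 and Irs1. In the WT group Ptpn1 had the highest mean (24.3 ± 9.47) through WT replicate 2, since in WT replicate 1 it was at 17.6, below Slc2a4, Akt2 and Irs2. By their WT means there followed Irs2 (20.7 ± 10.6), Akt2 (20.6 ± 14.5) and Slc2a4 (18.8 ± 19.1), whose libraries overlapped. Pik3r1 (10.3 ± 3.24), Foxo1 (8.36 ± 5.20), Grb14 (4.89 ± 3.30), Tbc1d4 (4.84 ± 1.74) and Insr (3.15 ± 1.35) followed, each overlapping the next, and Irs1 was last and apart at 0.643 ± 0.537. Overlap here compares ranges over libraries, not the order within a library. In both CKO libraries Slc2a4 was above Irs2. In both WT libraries Pik3r1 was above Foxo1, Foxo1 above Grb14 and Tbc1d4 above Insr. The other overlapping neighbours changed order between the libraries of the group. Averaged over all libraries, Slc2a4 was above 91.3% of tested genes in level and Irs1 above 30.5%.

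Reads were also set against those of the adipocyte markers. Per 1000 reads of the 10 adipocyte markers, Irs1 had 0.446 and 0.350 reads in CKO replicates 1 and 2 and 0.306 and 0.280 in WT replicates 1 and 2, with no overlap. Slc2a4 had 4.66 and 3.56 in CKO and 3.67 and 2.13 in WT, which overlapped. On this scale Akt2 was lower in both CKO libraries, at 4.22 and 5.15 against 7.19 and 8.59. Insr was lower too, at 1.40 and 1.72 against 1.85 and 3.51. Ptpn1 had 0.993 and 2.02 in CKO against 3.19 and 19.9 in WT, and Grb14 0.499 and 1.10 against 1.70 and 2.14. Pik3r1 and Tbc1d4 were also below both WT values, while Irs2 and Foxo1 overlapped. The marker reads numbered 1363419 and 961344 in CKO replicates 1 and 2 and 737970 and 224771 in WT replicates 1 and 2. Dividing by them lowers the CKO values of any gene against WT. The share of all genes whose groups lie apart on this scale was not counted, so these separations have no background.

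With libraries scaled to these markers, the median change of all genes moved to -1.33 and 6.32% of genes were positive. This scaling lowers every gene by about the same amount, so the genes left above 0 are those whose change was largest before it. The log2 changes of Slc2a4 and Irs1 were then 0.54 and 0.43, and the other 8 insulin pathway genes were negative, from -0.31 for Foxo1 to -2.49 for Ptpn1, with 0 of 10 past the adjusted threshold in limma (background 2.94% of genes lower and 0.0296% higher). Cfd encodes adipsin and is named after its values were seen. It gave 37.5% and 18.5% of the marker reads in CKO replicates 1 and 2. In WT replicates 1 and 2 it gave 17.1% and 5.48%. Fabp4, also named after its values were seen, gave 31.0% and 50.7% in CKO replicates 1 and 2. It gave 39.9% and 53.7% in WT replicates 1 and 2. Scaling by the median ratio of the markers, which limits the weight of such a gene, gave the same 2 positive genes (median of all genes -1.17, with 8.68% positive).

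**Figure D2:**
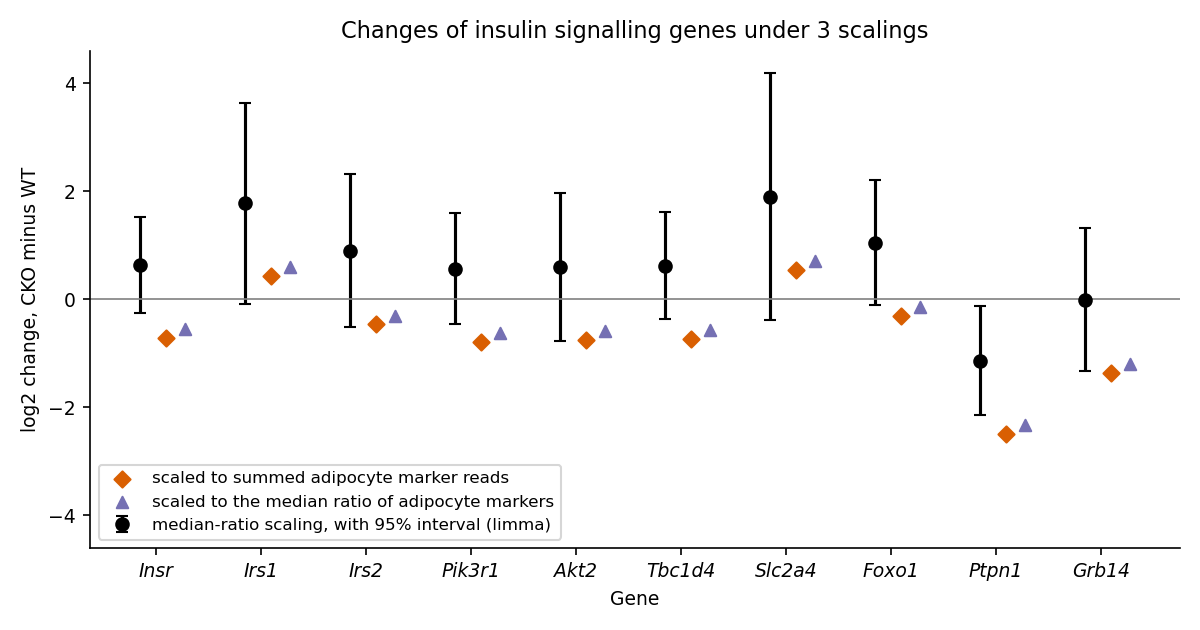
The log2 change (CKO minus WT) of each gene under median-ratio scaling over all genes (circles, with limma's 95% interval), and with libraries scaled to adipocyte markers by summed reads (diamonds) or by median ratio (triangles). The marker scalings lower all 10 genes by a like amount, which leaves Slc2a4 and Irs1, the genes of largest change, above 0, and the interval of Ptpn1 alone lies wholly on one side of 0.

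Ratios of 2 genes in the same library do not depend on scaling between libraries, and 8 were taken. They can still differ with the makeup of cells in a library, and the part of that makeup was not tested. Each log2 difference also restates the changes of its 2 genes and is no separate evidence. The ratio of Grb14 to its paralogue Grb10, per length, was lower in CKO and differed little within a group. It was 0.561 and 0.704 in CKO replicates 1 and 2 and 1.12 and 1.30 in WT replicates 1 and 2. Its mean log2 value was -0.67 ± 0.23 (SD, n = 2) for CKO, against 0.27 ± 0.15 (SD, n = 2) for WT, which differ by -0.94. The difference stayed between -1.10 and -0.78 with each library left out in turn. Grb10 alone had a log2 change of 0.93 (SE 0.55) and an unadjusted p of 0.152 in limma, and was not called.

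The ratio of Irs1 to Irs2 was -4.32 ± 0.15 in CKO and -5.21 ± 0.61 in WT on the log2 scale (SD, n = 2), with no overlap and a difference of 0.89, which was 0.46 without WT replicate 2 and 1.32 without WT replicate 1. The ratio of Slc2a4 to Slc2a1, the gene of the basal transporter GLUT1, was 10.8 and 4.91 in CKO replicates 1 and 2 and 4.88 and 0.410 in WT replicates 1 and 2. CKO replicate 2 and WT replicate 1 were nearly equal, within counting error (95% exact binomial intervals 4.53 to 5.33 and 4.46 to 5.36), and WT replicate 2 was the only library with more Slc2a1 than Slc2a4 per length. The ratio of Foxo1 to Foxo3 was 8.46 and 5.59 in CKO against 4.58 and 0.914 in WT. Here the intervals of CKO replicate 2 (5.13 to 6.11) and WT replicate 1 (4.15 to 5.06) did not meet. Without WT replicate 2 the log2 difference went from 2.36 to 0.57 for Slc2a4 to Slc2a1 and from 1.75 to 0.59 for Foxo1 to Foxo3. Slc2a4 to Ptpn1 had the widest range, from 7.46 in CKO replicate 1 to 0.170 in WT replicate 2, and its log2 difference was 3.04, or 1.32 without that library and 4.75 without WT replicate 1. The ratios of Akt2 to Akt1, Pik3r1 to Pik3ca and Insr to Igf1r overlapped between the groups, with log2 differences of 0.91, 0.32 and -0.041. Each of these changed sign when 1 library was left out, to -0.12 for Akt2 to Akt1 without WT replicate 2, to -0.10 for Pik3r1 to Pik3ca without CKO replicate 1, and to 0.31 for Insr to Igf1r without CKO replicate 2. With 2 libraries against 2, an exact two-sided permutation test cannot go below a p of 0.333, and the ratios are given without a test. The share of all gene pairs whose groups lie apart was not counted, so these separations have no background.

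**Figure D3:**
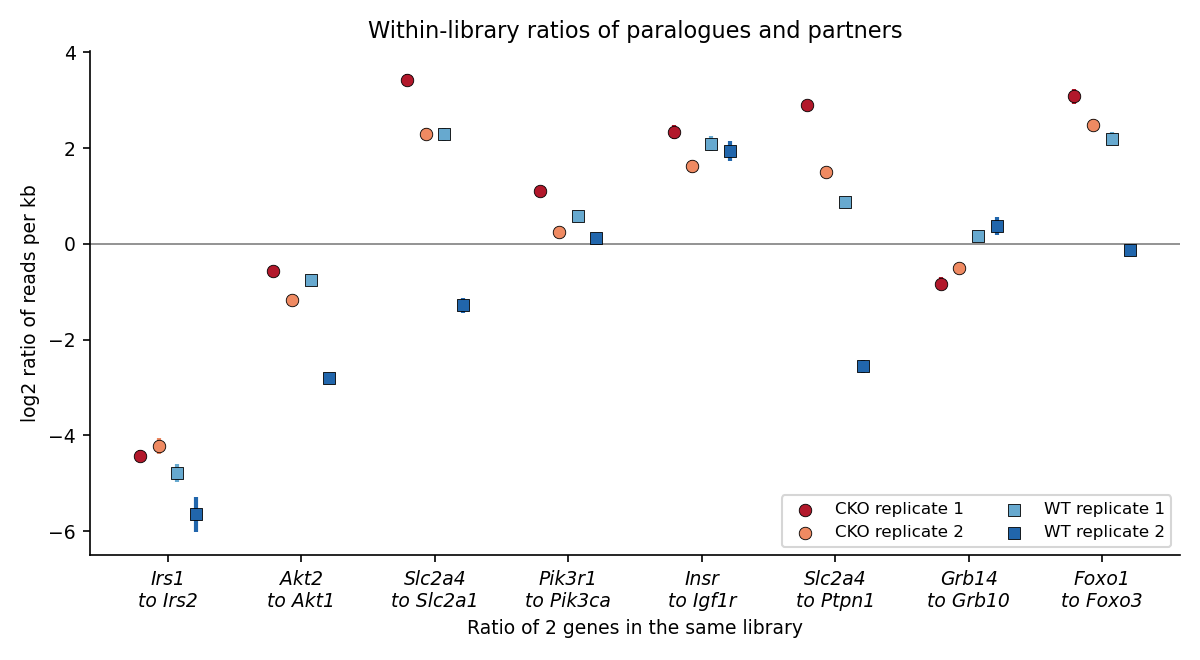
The log2 ratio of reads per kb of 2 genes of the same library, for 8 pairs, with 1 point for each library and bars for the 95% exact binomial interval, which covers counting error only. Grb14 to Grb10 separates the groups with little spread. Akt2 to Akt1, Slc2a4 to Slc2a1, Slc2a4 to Ptpn1 and Foxo1 to Foxo3 are far lower in WT replicate 2 than in the other 3 libraries. The groups also lie apart for Irs1 to Irs2, Slc2a4 to Slc2a1, Slc2a4 to Ptpn1 and Foxo1 to Foxo3. The share of all gene pairs that would separate was not counted.

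The rest of the pathway showed no shared direction. Of 70 other genes listed by role, 69 were tested, 38 had a positive and 31 a negative log2 change, and the median was 0.053, close to the 0.015 of all genes. In limma 0 passed the adjusted threshold, and at an unadjusted p under 0.05 there were 2 higher and 6 lower, near the background of 3.35% higher and 7.26% lower. Of these 8, all but Inpp5d are named after their values were seen. Pik3cd and Pik3cg, which encode catalytic subunits of phosphoinositide 3-kinase found mainly in white blood cells, were at -2.29 and -2.05. Both were lowest in CKO replicate 1 and highest in WT replicate 2, which had 3653 and 1639 scaled reads of them against 322 and 156 in CKO replicate 1. Inpp5d, the blood cell phosphatase SHIP1, was at -1.66, Enpp1 at -2.27, the adaptor gene Grb2 at -1.14 and Sesn1 at -1.02. The regulatory subunit gene Pik3r3 and Vamp2, a vesicle fusion protein, were at 1.25 and 0.79.

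Among receptors and adaptors other than the genes above, 5 of 6 were positive, with the receptor gene Igf1r at 0.68 (SE 0.34, limma adjusted p 0.464). Of 14 other kinase pathway genes, 6 were positive. The catalytic subunit genes Pik3ca and Pik3cb were at 0.25 and -0.079, Pik3r2 at -0.55, Pdpk1 at 0.17 and Akt1 at -0.30. Of 16 other genes of GLUT4 traffic, 9 were positive, among them Lnpep, which travels with GLUT4, at 0.12, whereas Slc2a1 was at -0.46. Of 12 genes of metabolic outputs, 6 were positive, including Pde3b, which lowers cyclic AMP and so restrains lipolysis, at 1.19 (SE 0.65, limma adjusted p 0.480), and the hexokinase gene Hk2 at 0.84.

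Foxo1's relatives and targets were divided as well, with 5 of 8 tested positive. Foxo3 was at -0.70, and Pdk4, a FOXO target that limits pyruvate oxidation, at 0.053 with a range of 1394 to 4849 scaled reads in the WT libraries alone. Of 13 other negative regulators, 7 were positive and 6 negative. Socs3 was at 0.72 (SE 0.31, limma adjusted p 0.459), with 7819 and 10484 scaled reads in CKO replicates 1 and 2 and 5897 and 5151 in WT replicates 1 and 2, so its groups did not overlap. Grb10 was at 0.93 and Inppl1 at -0.45. Foxo6 was not tested because of its low counts.

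**Figure D4:**
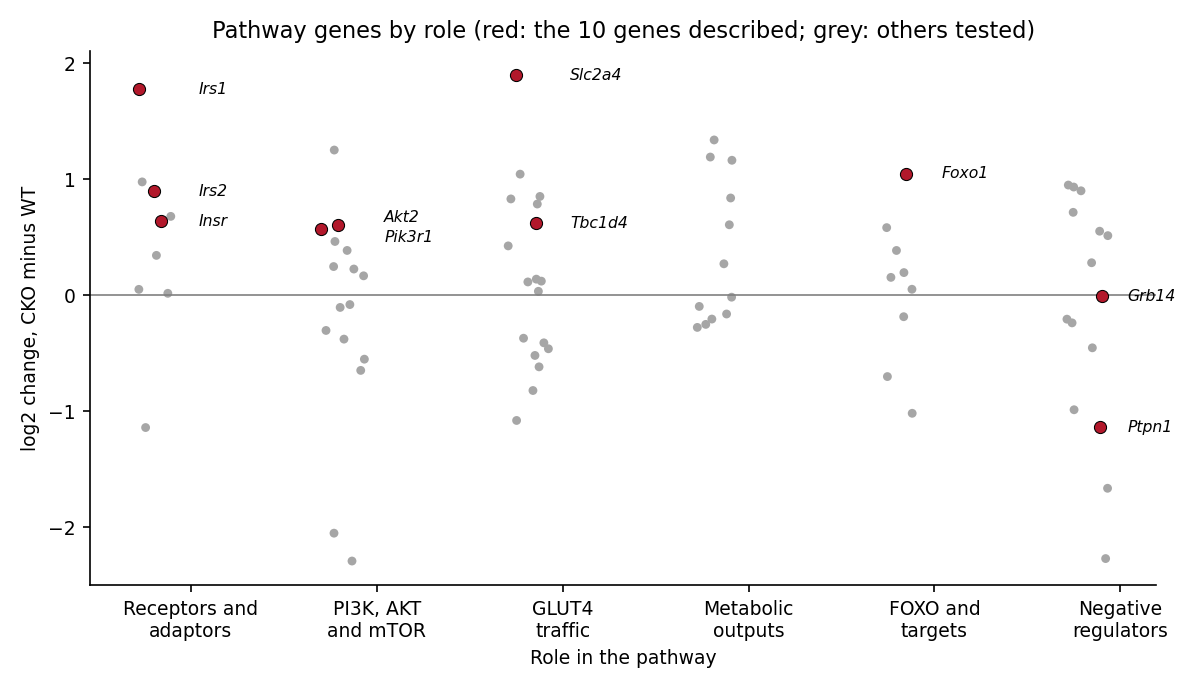
The log2 change (CKO minus WT, median-ratio scaling) of the 79 tested pathway genes by role, with 1 point for each gene and no error shown. The 10 genes described (red, labelled) lie mostly above 0, the others (grey) on both sides in each role.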

How the data were processed

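RNA sequencing of isolated gWAT adipocytes gave 4 libraries, 2 CKO and 2 WT, with replicates numbered in the order of the records. The submitters' processing notes name STAR 2.7.5c, FastQC and GRCm38.p6. A read counter, its annotation and its use of strand were not given in the sources used here. Values deposited by the authors are log2 and described as normalised, but undoing the log2 and subtracting 1 gave whole numbers within 0.01 for 100% of genes, so they hold log2(reads + 1), unscaled. Reads were recovered by rounding and divided by size factors of 0.951 to 1.10 (median ratio over 19847 genes), and a pseudocount of 1 was added before log2, which understates changes of low genes.

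A deposited log2 mean of 3 or more was required (16871 genes), and group was the single term in limma 3.58.1 (R 4.3.3; moderated with a trend, two-sided tests), with Benjamini-Hochberg adjustment over all of them. The same script was tested on simulated data. These had less spread between libraries than Slc2a4 and Irs1 show here, so that test does not cover such spread. The members and gene lists were chosen with earlier results of these data known. Named are the 10 members, 18 pathway genes marked in the lists (some are not reported here), the 5 nearest profiles to Slc2a4 and Ptpn1 (mean log2 value of at least 6), Adipoq and Adgre1. Prdm1, Cfd, Col1a1, genes on the opposite strand and those so described were chosen after their values were seen. Identifiers matched GENCODE M21 (GRCm38) for 99.3% of genes, which gave exon lengths and 1-based coordinates. Promoters came from a RefSeq table of GRCm38.p6, with those of chromosome 18 left out. The design foresaw limma on scaled reads if the table held log2(reads + 1), because the deposited unit is log2. The other settings are listed with their effect in the closing section.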

Additional observations from a re-analysis of the deposited data

How the results depend on the processing

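No paired analysis was possible because the labels give the groups no numbers in common. The 10 insulin pathway genes kept their direction, and 0 of 10 passed the adjusted threshold, with a robust fit, voom weights, a pseudocount of 10, no trend, and a minimum of 6 or none. Unscaled reads, total reads and quantile normalisation turned only Grb14 (0.13, 0.079 and 0.046) and, of the other named genes, Pik3cb (0.055, 0.0059 and 0.027). Over all genes, 0 were called except with adipocyte marker scaling (501), its median-ratio form, which was added after the data had been seen (30), and without WT replicate 1 (1775, with 4 insulin genes); leaving out libraries gave 0 to 1775 genes and 0 to 4 insulin genes. The median of the 10 was -0.73 and -0.56 with those marker scalings, and 0.31 to 1.17 with a library left out.

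The summed and median-ratio marker scalings, which lower every gene by construction, turned Insr (-0.72, -0.55), Irs2 (-0.46, -0.30), Pik3r1 (-0.79, -0.63), Akt2 (-0.75, -0.59), Tbc1d4 (-0.73, -0.57) and Foxo1 (-0.31, -0.15). They also turned Igf1r (-0.67, -0.51), Pik3ca (-1.11, -0.95), Pdpk1 (-1.19, -1.03), Lnpep (-1.23, -1.07), Pde3b (-0.16, -0.0034), Hk2 (-0.52, -0.36), Pdk4 (-1.30, -1.14), Grb10 (-0.42, -0.26) and Socs3 (-0.64, -0.48). With each library left out in turn, the ranges were 0.87 to 2.68 for Irs1, 0.66 to 3.14 for Slc2a4, 0.43 to 1.66 for Foxo1, -1.61 to -0.66 for Ptpn1, -0.12 to 1.32 for Akt2, -0.69 to 0.68 for Grb14, -0.32 to 0.16 for Pik3cb, -1.01 to 0.086 for Slc2a1, -0.85 to 0.95 for Pdk4, 0.14 to 1.72 for Grb10 and -2.47 to -0.85 for Inpp5d. Where no construction explains a change, the cause was not tested. Depth limits Irs1 most, with 63 reads in WT replicate 2.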
